A study of Mus musculus with 8 samples.

Results

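The 10 genes described here make or convert steroid hormones: Star, Cyp11a1, Cyp17a1, Hsd3b1, Hsd17b3, Hsd17b4, Srd5a1, Srd5a2, Srd5a3 and Akr1c18. They were taken by gene symbol from a list made with earlier results of these data known. All 10 were found among the 38115 genes of the count files. RNA was sequenced from 8 tumors grown from Myc-CaP, a mouse prostate cancer cell line driven by a Myc transgene, in the anterior prostate lobes of FVB male mice that were either intact or castrated before injection. Of these, 2 were primary androgen sensitive (AS), 2 metastatic AS, 2 primary castrate resistant (CR) and 2 metastatic CR tumors. All 4 metastases are labelled as matched, but the labels name neither the primary tumor that each one matches nor the organ it grew in, and they do not say which tumor came from a castrated host. A matched pair may share an animal, so the 4 tumors of a phenotype may stand for as few as 2 animals. All tumors go back to 1 cell line, so the tumors are replicates of that line and its CR derivative, and the numbers 1 and 2 after a group carry no pairing. The library numbers of all AS tumors fall in one series and those of all CR tumors in another, so library series and phenotype cannot be told apart.

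Steroid hormones are built from cholesterol. Star carries cholesterol to the inner mitochondrial membrane, where Cyp11a1 cuts its side chain to give pregnenolone. Cyp17a1, the 3beta-hydroxysteroid dehydrogenases and the 17beta-hydroxysteroid dehydrogenase Hsd17b3 turn pregnenolone into testosterone, mainly in the testis. The 5alpha-reductases Srd5a1 and Srd5a2 convert testosterone into dihydrotestosterone, the more potent androgen in prostate. The comparison of CR with AS tumors asks which of these transcripts differ between the castrate resistant and the androgen sensitive phenotype.

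CPM is the read count scaled to one common library size (TMM), and FPKM is the CPM per kilobase of exon, used only to compare genes. Total counts ranged from 20905806 in metastatic CR2 to 91886163 in metastatic AS2. A gene with 0 reads could therefore still have a level of up to 0.0294 CPM in metastatic AS2 and of up to 0.148 CPM in primary CR2, which is 3 counts in each library and covers counting error only. Between 22232 and 27673 genes had a count in a tumor, the most in metastatic AS2 and metastatic CR2, which also had more reads on olfactory receptor genes than other tumors of their phenotype. Among markers of luminal epithelium, Krt8 was at 36.6 to 715 CPM, while Epcam was at no more than 0.280 CPM in any tumor.

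The windows of 300 bases around the annotated start, from RefSeq (GRCm38.p6), are shown for the 3 5alpha-reductase genes, of which Srd5a1 and Srd5a3 were counted in every tumor and Srd5a2 was not, and for Akr1c18, which reached 3 reads in AS tumors only. Windows were matched by symbol for 7 of the 10 genes. Capitals mark GGGCGG, the core of a GC box, on either strand.
Srd5a1, chr13:69611414-69611713, minus strand: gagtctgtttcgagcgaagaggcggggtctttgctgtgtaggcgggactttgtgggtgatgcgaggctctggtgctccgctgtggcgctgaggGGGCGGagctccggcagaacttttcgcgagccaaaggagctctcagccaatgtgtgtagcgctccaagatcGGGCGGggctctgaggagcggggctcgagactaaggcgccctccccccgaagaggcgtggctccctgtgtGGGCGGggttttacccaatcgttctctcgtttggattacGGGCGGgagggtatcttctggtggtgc
Srd5a3, chr5:76140023-76140322, plus strand: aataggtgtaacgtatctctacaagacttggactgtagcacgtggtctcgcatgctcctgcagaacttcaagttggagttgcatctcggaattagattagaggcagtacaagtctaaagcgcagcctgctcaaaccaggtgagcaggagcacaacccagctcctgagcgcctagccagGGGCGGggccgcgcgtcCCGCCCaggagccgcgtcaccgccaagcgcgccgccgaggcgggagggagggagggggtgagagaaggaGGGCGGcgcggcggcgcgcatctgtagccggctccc
Srd5a2, chr17:74047811-74048110, minus strand: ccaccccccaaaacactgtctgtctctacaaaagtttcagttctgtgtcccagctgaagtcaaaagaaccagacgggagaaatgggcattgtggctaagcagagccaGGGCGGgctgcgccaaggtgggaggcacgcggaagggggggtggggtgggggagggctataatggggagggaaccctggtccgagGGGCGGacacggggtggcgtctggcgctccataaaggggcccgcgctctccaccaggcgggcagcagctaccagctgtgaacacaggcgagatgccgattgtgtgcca
Akr1c18, chr13:4150597-4150896, minus strand: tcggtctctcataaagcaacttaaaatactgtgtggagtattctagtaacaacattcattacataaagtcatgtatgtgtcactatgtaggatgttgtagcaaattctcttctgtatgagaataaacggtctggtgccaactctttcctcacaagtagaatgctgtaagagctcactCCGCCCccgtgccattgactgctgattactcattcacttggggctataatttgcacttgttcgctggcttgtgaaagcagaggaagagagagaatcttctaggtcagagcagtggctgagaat
GGGCGG occurred 4 times in the Srd5a1 window, 3 times in that of Srd5a3, 2 times in that of Srd5a2 and 1 time in that of Akr1c18. Of 32851 windows of this length in the table, 35.7% held it at least once. The Srd5a1 window held 24 CG dinucleotides, that of Srd5a3 26, that of Srd5a2 15 and that of Akr1c18 5, where the median of all windows was 7. TATAAA, searched on both strands, was in none of these windows (0) and in 13.6% of all windows. These matches describe letters and say nothing of binding.

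Of the 10 genes, 4 were counted with at least 3 reads in all 8 tumors: Hsd17b4, Srd5a3, Srd5a1 and Star. Cyp17a1 and Akr1c18 reached 3 reads in the 4 AS tumors and in no CR tumor. Hsd3b1 reached 3 reads in 3 tumors, and Cyp11a1, Hsd17b3 and Srd5a2 reached it in 0 tumors. Depth went partly with phenotype: total counts were at least 61237285 in AS tumors and 76887592 in primary CR1. They were 40586710 in metastatic CR1, 24909389 in primary CR2 and 20905806 in metastatic CR2, where 3 reads stand for a higher level. The share of all genes that reach 3 reads in AS tumors only was not counted. Cyp11a1, Cyp17a1, Hsd3b1 and Hsd17b3, which act in turn on the way from cholesterol to testosterone, had at most 25 reads in any tumor. As a low reference, 1035 pooled olfactory receptor genes had between 0.00280 and 0.0497 FPKM by tumor. The pool did not hold silent genes only: Srd5a3, with a mean of 2.13 FPKM, lay above 99.9% of them but not above all. This reference was chosen after the data were seen.

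**Figure D1:**
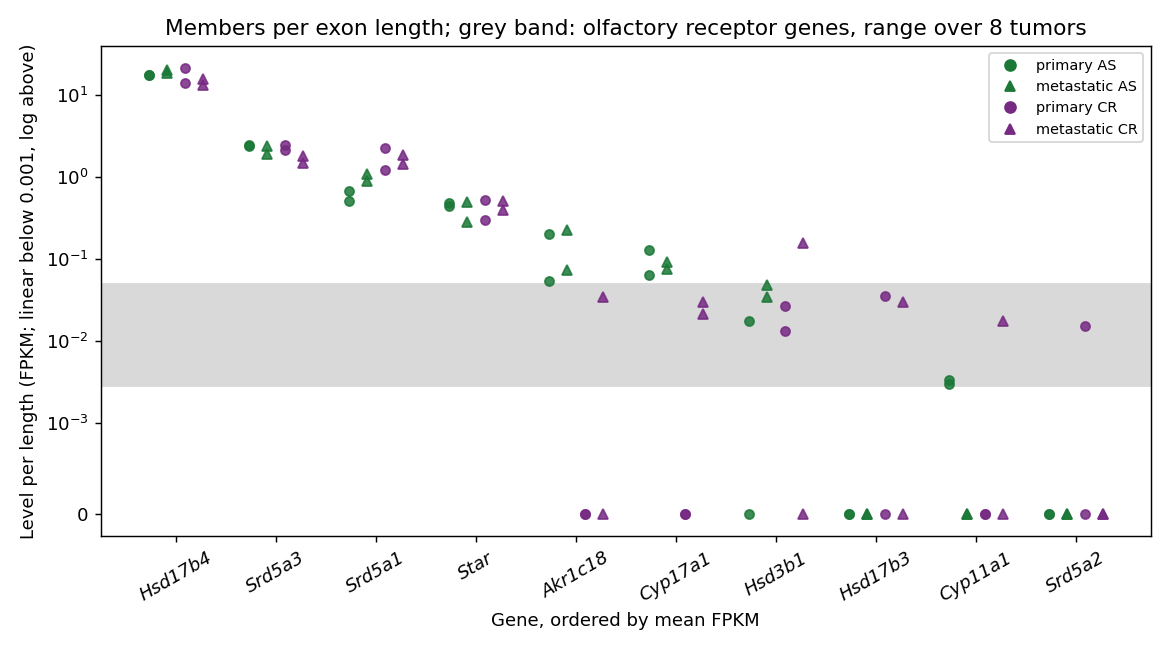
Level of each gene in FPKM, on an axis that is linear below 0.001 and logarithmic above, with circles for primary and triangles for metastatic tumors, green for AS and purple for CR. The grey band is the range over the 8 tumors of pooled olfactory receptor genes. Hsd17b4, Srd5a3, Srd5a1 and Star lie above the band in all 8 tumors.

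Hsd17b4, a peroxisomal enzyme that oxidises estradiol and takes part in fatty acid beta-oxidation, had the highest level per length of the 10 genes, with a mean of 17.2 ± 2.80 FPKM (SD, n = 8), above 92.5% of protein-coding genes. The gene lies on chromosome 18 from 50128201 to 50196269. Its level was 58.9 CPM in primary AS1, 58.9 in primary AS2, 68.7 in metastatic AS1 and 62.4 in metastatic AS2. In CR tumors it was 72.1 CPM in primary CR1, 47.4 in primary CR2, 53.8 in metastatic CR1, with the lowest value, 44.9, in metastatic CR2. The groups overlapped, since primary CR1 was the highest of all tumors and the other 3 CR tumors were the lowest.

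Srd5a3, which is best known as the polyprenol reductase of protein N-glycosylation, followed with 2.13 ± 0.360 FPKM (SD, n = 8). It lies on chromosome 5 from 76140271 to 76155504. Its level was 11.4 CPM in primary AS1, 11.2 in primary AS2, 8.88 in metastatic AS1, 11.0 in metastatic AS2, 11.5 in primary CR1, 9.81 in primary CR2, 6.94 in metastatic CR1 and 8.43 in the other CR metastasis. The 3 lowest values were those of metastatic CR1, metastatic CR2 and metastatic AS1, and both phenotypes and both tumor types overlapped. Srd5a1 had a mean of 1.23 ± 0.583 FPKM and its range over tumors, 0.512 to 2.23, overlapped that of Srd5a3, 1.49 to 2.46. Star had 0.426 ± 0.0925 FPKM, above 47.9% of protein-coding genes. Its highest value, 0.515 FPKM, and the lowest of Srd5a1 were nearly the same.

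Star (chromosome 8, 25806555 to 25815982) had between 43 and 207 reads in a tumor. Its level was 1.97 CPM in primary AS1, 1.82 in primary AS2, 1.16 in metastatic AS1 and 2.03 in metastatic AS2, and 1.22 CPM in primary CR1, 2.12 in primary CR2, 1.63 in metastatic CR1 and 2.07 in the other CR metastasis. The phenotypes covered almost the same range. Cyp11a1 (chromosome 9, 58006411 to 58027023), the enzyme that acts on the cholesterol that Star delivers, had 4 reads in all 8 tumors together, at most 2 in one tumor, and its mean FPKM was above that of 25.2% of olfactory receptor genes. Star was therefore counted in tumors where Cyp11a1 was not detectable at this depth.

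Hsd3b1 (chromosome 3, 98852194 to 98859794), a 3beta-hydroxysteroid dehydrogenase of gonad and adrenal gland, had 26 reads in all. It had 2 reads in primary AS1, 0 in primary AS2, 5 in metastatic AS1, 9 in metastatic AS2, 2 in primary CR1, 1 in primary CR2, 0 in metastatic CR1 and 7 in metastatic CR2. Its 2 highest counts were in metastatic AS2 and metastatic CR2, the tumors with the most genes counted. Of windows the length of a read in its transcripts, 1.89% matched another gene with up to 2 mismatches, Hsd3b2 and Hsd3b6 among them, so a few reads could be shared or lost. Hsd17b3 (chromosome 13, 64058266 to 64089230), the testicular enzyme that makes testosterone, had 1 read in primary CR2, 1 in metastatic CR2 and 0 elsewhere. Srd5a2 (chromosome 17, 74016955 to 74047916), the main 5alpha-reductase of normal prostate, had 2 reads in primary CR1 and 0 in the other 7 tumors.

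In their families, Hsd3b1, Hsd17b3 and Akr1c18 were not the genes with most reads. Hsd3b2 was at 11.4 ± 3.03 CPM in AS and 24.2 ± 18.6 CPM in CR tumors (SD, n = 4 each), and its adjusted p between phenotypes was 0.247. Hsd3b7, which acts in bile acid synthesis, had a mean of 13.1 FPKM. Hsd17b11, Hsd17b10 and Hsd17b12 had means of 65.7, 52.4 and 33.2 FPKM, all above Hsd17b4. Among Akr1c genes Akr1c13 had the highest mean, 3.71 FPKM, against 0.0729 FPKM for Akr1c18.

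**Figure D2:**
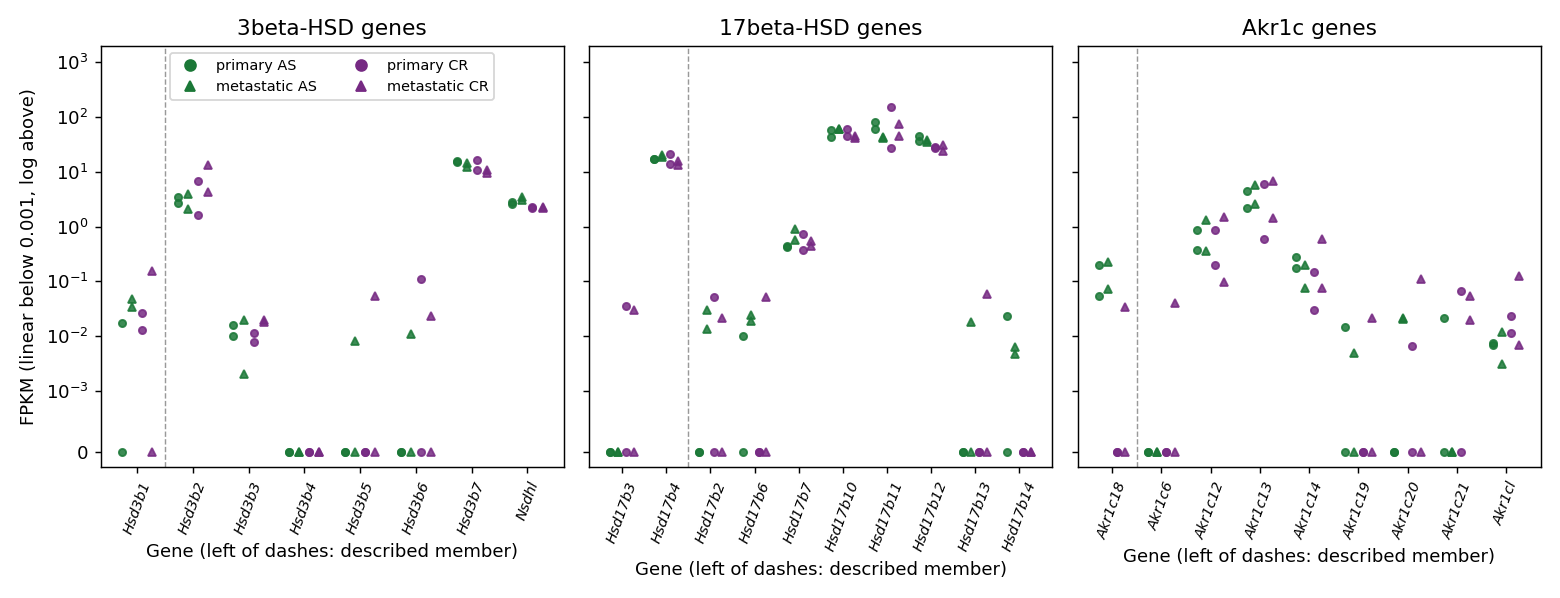
FPKM of the described genes, left of the dashed line, and of the other genes of their families, on an axis that is linear below 0.001 and logarithmic above, with circles for primary and triangles for metastatic tumors, green for AS and purple for CR. Hsd17b4 is joined at the top by Hsd17b10, Hsd17b11 and Hsd17b12, while Hsd3b1, Hsd17b3 and Akr1c18 lie below the most abundant genes of their families.

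Srd5a1 was the gene of the 10 that was called higher in CR tumors, in a fit that takes the 8 tumors as independent. It lies on chromosome 13 from 69573449 to 69611442. Its level was 1.49 CPM in primary AS1, 1.96 in primary AS2, 3.16 in metastatic AS1 and 2.59 in metastatic AS2. In CR tumors it was 6.50 CPM in primary CR1, 3.50 in primary CR2, 4.20 in metastatic CR1 and 5.33 in metastatic CR2. In CPM every CR tumor was above every AS tumor, and the closest were primary CR2 and metastatic AS1. Scaled to the raw total instead of by TMM, primary CR2 lay below metastatic AS1. The mean was 2.30 ± 0.728 CPM in AS and 4.88 ± 1.32 CPM in CR tumors (SD, n = 4 each), 2.12 times as high. The fitted log2 fold change was 1.14 (SE 0.30, 95% interval 0.46 to 1.81, adjusted p = 0.0419, edgeR's quasi-likelihood test with tumor type as a covariate). The exact two-sided permutation test of the 8 tumors gave p = 0.0286, the smallest value that 4 against 4 tumors allow, in a family of 20 such tests. Permuting whole matched pairs would allow 6 arrangements and no p below 0.333. When the counts of matched tumors were added, for each of the 4 possible pairings, the log2 fold change was 1.06 to 1.12 and the gene was called in 0 of the 4 fits (adjusted p 0.136 to 0.151). The call was close to the threshold: it was lost in 7 of the 8 fits that left out 1 tumor, with adjusted p from 0.0605 to 0.121, and kept without primary CR1 at 0.0349. Among primary tumors alone the log2 fold change was 1.55 (adjusted p = 0.393) and among metastatic tumors alone 0.75 (adjusted p = 0.180), both in the same direction, with 2 tumors against 2.

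Of all 17797 genes tested between phenotypes, 11.4% were called, 5.66% higher and 5.72% lower in CR tumors. Of the 10 genes, 5 passed the filter on low counts and 1 of these was called, which at this number is no result about the list. Of the same 17797 genes, 18.4% had no overlap between the phenotypes in CPM, as was the case for Srd5a1 and Cyp17a1. Akr1c18, which was not among the genes tested, did not overlap either. For Cyp17a1 and Akr1c18, 0 reads were taken as a level of 0. Srd5a1 shares exon sequence with Gm17108 on the same strand, and 13.6% of its read-length windows matched that gene. Gm17108 was at 10.7 ± 0.931 CPM in AS and 12.7 ± 3.50 CPM in CR tumors, with a fold change of 0.25 on the log2 scale (adjusted p = 0.476). Nsun2, on the opposite strand with 0 shared exon bases, had a log2 fold change of 0.53 (adjusted p = 0.0721). How reads in shared sequence were assigned is not given in the sources used here, and their part in the result was not tested.

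Cyp17a1 and Akr1c18 went the other way. Cyp17a1 (chromosome 19, 46667165 to 46673172), the 17alpha-hydroxylase and 17,20-lyase that opens the path to androgens, had 11 reads in primary AS1, 25 in primary AS2, 20 in metastatic AS1 and 21 in metastatic AS2. It had 0 reads in primary CR1, 0 in primary CR2, 2 in metastatic CR1 and 2 in metastatic CR2. In CPM the AS tumors were at 0.176, 0.358, 0.255 and 0.206 in the same order, all above the level of up to 0.148 CPM that 0 reads allow in the shallowest case, primary CR2. That limit holds for 0 reads only. With 2 reads each, metastatic CR1 and metastatic CR2 were at 0.0583 and 0.0827 CPM. Their upper limits are higher than those values and were not computed, so the AS tumors are not shown to lie above them. Pooled over tumors, 77 reads in AS and 4 in CR tumors gave a ratio of 9.89 (95% interval 3.71 to 37.2, exact, for counting error only). The fitted log2 fold change was -3.11 (SE 0.92, adjusted p = 0.0615, edgeR), which missed the threshold. The gene passed the filter on low counts only through the AS tumors, where it is high, so its place among the tested genes is no support for a difference. It was called in 3 of 21 alternatives, with adjusted p = 0.0187 by DESeq2 and 0.0482 with phenotype as the only term, both after that filter, and 0.0177 over every gene with a count. The range over the 21 was 0.0177 to 0.327, and it was called in 0 of the 4 fits of summed matched tumors. The exact permutation p, which uses no filter, was 0.0286 with the 8 tumors taken as independent. That is the smallest value the test allows, in the same family of 20 tests.

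Akr1c18 (chromosome 13, 4132615 to 4150654), the 20alpha-hydroxysteroid dehydrogenase that inactivates progesterone, had 4 reads in primary AS1, 17 in primary AS2, 21 in metastatic AS1 and 9 in metastatic AS2. It had 1 read in metastatic CR2 and 0 in the other 3 CR tumors. Of these, primary CR1 was the deepest, and 0 reads there allow a level of up to 0.0366 CPM, below the lowest AS tumor at 0.0641 CPM. In primary CR2 and metastatic CR1, 0 reads allow up to 0.148 and 0.0875 CPM, so a level like that of primary AS1 was not detectable there. The pooled ratio of AS to CR tumors was 26.2, from 51 reads and 1 read, with an exact 95% interval for counting error of 4.50 to 1055. Akr1c18 did not pass the filter for the comparison of phenotypes. It was tested in 12 alternatives and called in 1, the edgeR fit over every gene with a count (adjusted p = 0.0215). The adjusted p over the 12 ranged from 0.0215 to 0.246. In the other alternatives the gene passed the filter only through AS tumors, where it is high. Its place among the tested genes there is no support for a difference. The permutation p was 0.0286 by the exact test, with the 8 tumors taken as independent. It is the smallest value that test allows, in the same family of 20 tests. The test takes 0 reads as a level of 0, so it does not allow for the limits of primary CR2 and metastatic CR1.

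**Figure D3:**
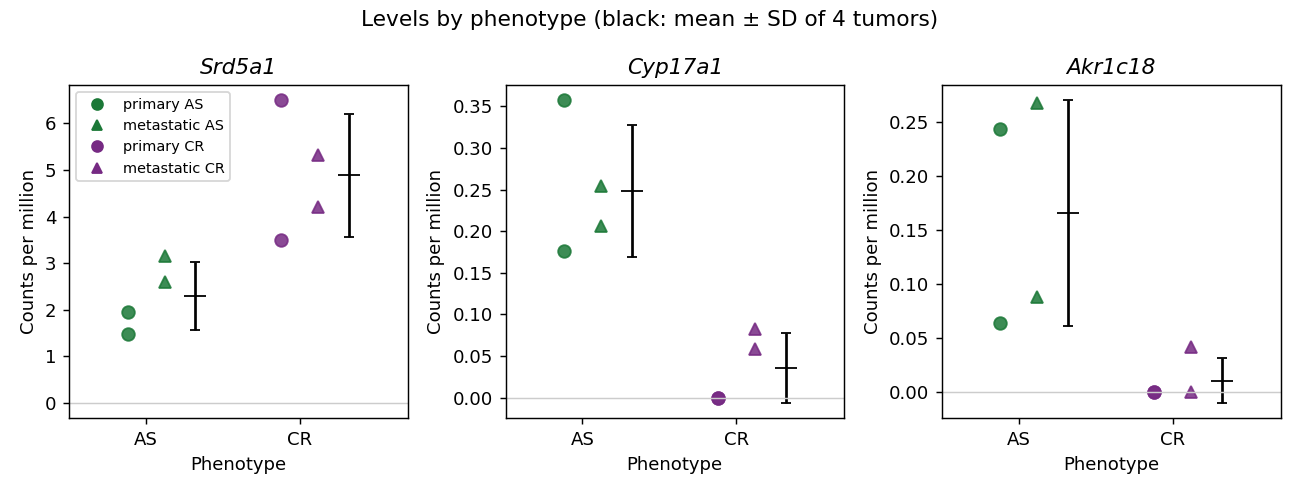
CPM of Srd5a1, Cyp17a1 and Akr1c18 by phenotype, with circles for primary and triangles for metastatic tumors, and the mean ± SD of 4 tumors in black. Srd5a1 lies higher in all 4 CR tumors, and Cyp17a1 and Akr1c18 lie lower.

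The other 3 genes tested between phenotypes were not called. Srd5a3 had a log2 fold change of -0.23 (SE 0.17, adjusted p = 0.414) and Hsd17b4 of -0.19 (SE 0.18, adjusted p = 0.517). For Star it was 0.00 (95% interval -0.69 to 0.70, adjusted p = 0.996), so a change of either sign within that interval was not detectable with 4 tumors in each group.

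Between metastatic and primary tumors none of the 5 genes tested was called (0 called), where 0% of all 17104 genes were called and 459 genes had an unadjusted p under 0.05. DESeq2 also called 0 genes. The main edgeR fit of tumor type had no term for phenotype, so differences between phenotypes count as spread in its intervals. With phenotype as a covariate, 0 of 17797 genes were called and 1172 had an unadjusted p under 0.05. Srd5a3 came closest, with 8.82 ± 1.69 CPM in metastatic and 11.0 ± 0.780 CPM in primary tumors (SD, n = 4 each), a log2 fold change of -0.31 (SE 0.20, adjusted p = 0.997) and an exact permutation p of 0.0571. Srd5a1 was at 3.82 ± 1.21 CPM in metastatic and 3.36 ± 2.26 CPM in primary tumors. Its SD in primary tumors was the wider, since primary CR1 and primary AS1 were the highest and the lowest of all 8 tumors. The interval of the log2 fold change was -0.86 to 1.24 for Srd5a1 and -0.47 to 0.40 for Hsd17b4. The difference of the phenotype effect between metastatic and primary tumors was called for 0% of 18889 genes and for 0 of the 6 genes tested, with 517 genes at an unadjusted p under 0.05 and 2 genes called by DESeq2. For Srd5a1 it was -0.84 on the log2 scale (SE 0.55, adjusted p = 0.964). The largest of the 6 was that of Cyp17a1, 5.28 (SE 1.91, adjusted p = 0.964), whose few reads in CR tumors were all in metastases.

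Other genes that serve steroid synthesis and removal were taken from lists of 74 genes found in the files, of which 44 were tested between phenotypes. Of these, 6 were called lower and 0 higher in CR tumors, beside 5.72% and 5.66% of all genes tested. In all, 17 of the 44 had a positive and 27 a negative change, with a median log2 fold change of -0.18 against -0.01 over all genes. Por, the reductase that passes electrons to microsomal P450 enzymes such as Cyp17a1, was at 312, 309, 154 and 206 CPM in primary AS1, primary AS2, metastatic AS1 and metastatic AS2, and at 131, 134, 120 and 94.4 CPM in the CR tumors in that order. All CR tumors were below all AS tumors, and Por fell by 0.99 on the log2 scale (SE 0.18, adjusted p = 0.0146). Fdx1l, a mitochondrial ferredoxin known for iron-sulfur cluster assembly rather than steroid synthesis, fell by 0.53 (SE 0.13, adjusted p = 0.0337). Stard5, a carrier of cholesterol and bile acids, fell by 0.97 (SE 0.23, adjusted p = 0.0319).

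The other 3 genes belong to sulfonation, which inactivates steroids. Papss2, which makes the sulfate donor, was at 24.2, 21.1, 28.0 and 16.1 CPM in primary AS1, primary AS2, metastatic AS1 and metastatic AS2, and at 0.817, 2.27, 1.60 and 0.372 CPM in the CR tumors in that order. Papss2 fell by 4.19 on the log2 scale (SE 0.48, adjusted p = 0.0036). Its paralog Papss1 fell by 0.72 (SE 0.19, adjusted p = 0.0394), and the estrogen sulfotransferase Sult1e1 fell by 2.88 (SE 0.77, adjusted p = 0.0455), although metastatic AS2 at 2.99 CPM lay within the range of the CR tumors. Without metastatic AS1, its highest tumor, the change of Sult1e1 was -1.68 (adjusted p = 0.0803). Papss2 kept its call in all 8 fits that left out 1 tumor (adjusted p 0.0015 to 0.013). Over 22 alternatives the call was lost in 1 for Papss2, in 9 for Por, in 13 for Stard5, in 14 for Sult1e1 and in 15 each for Papss1 and Fdx1l. With the counts of matched tumors added, Papss2 kept its call under all 4 pairings (adjusted p 0.0131 to 0.0425) and the other 5 genes under none (0 pairings). In the comparison of tumor types, 0 of the 44 tested genes were called. The smallest p-values there were those of Ugt1a6a, a glucuronosyltransferase, at -0.90, of Acbd3 at 0.34 and of Nr5a2 at 1.01 on the log2 scale, each with adjusted p = 0.997.

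**Figure D4:**
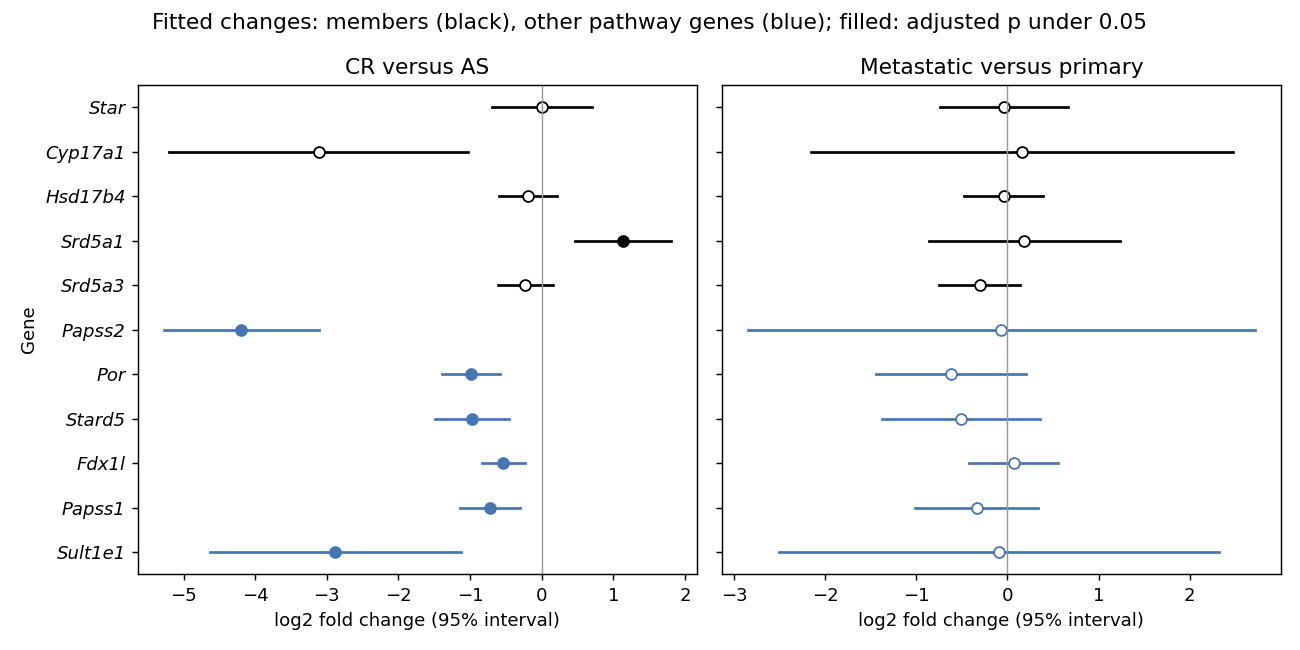
Fitted log2 fold changes with 95% intervals for the 5 tested steroid synthesis genes (black) and 6 other pathway genes (blue), for CR against AS tumors on the left and metastatic against primary tumors on the right. Filled points have an adjusted p under 0.05. Srd5a1 is the filled black point and lies above 0, while the 6 filled blue points lie below 0.

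Markers of steroid-producing cells of testis and adrenal cortex were near 0. The 7 markers summed to 0.306 to 0.696 CPM in AS and 0.175 to 0.992 CPM in CR tumors, and 0 of them had 3 reads in all 8 tumors. Marker sums of myeloid cells were 336 to 486 CPM in AS and 210 to 440 CPM in CR tumors, and those of endothelium were 54.5 to 100.7 and 48.6 to 87.3 CPM. Luminal markers summed to 49.4 to 193 CPM in AS and 291 to 896 CPM in CR tumors, with no overlap, as for Srd5a1. This sum is mostly Krt8, with a log2 fold change of 1.85 (adjusted p = 0.0464), and the list was not uniform. Krt19 was called higher at 3.66 (adjusted p = 0.0197), while Krt18 was at -0.78, Epcam at -1.31 and Cdh1 at 0.04, none of them called, and the median of the 6 tested markers was 0.32. The part of these cells in the change of Srd5a1 was not tested. The 8 hepatocyte markers summed to 3796 to 10172 CPM in AS and 114 to 1976 CPM in CR tumors, nearly all of it from Fgb, while Alb was at no more than 3.14 CPM in any tumor. This list was not uniform either. Of its 5 tested markers, 3 were called lower in CR tumors. The other 2, Alb at 1.36 and Cyp2e1 at 0.42 on the log2 scale, had a positive change and were not called. The part of hepatocytes in the changes of Papss2 and Sult1e1, which liver also expresses, was not tested. In bulk tumors, fewer cells of a type and less RNA per cell cannot be told apart.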

How the data were processed

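RNA was sequenced from 8 Myc-CaP tumors. According to the methods, the authors depleted ribosomal RNA, prepared stranded libraries, sequenced paired-end reads of 101 bases, mapped them to mm10 with Bowtie and kept unique matches with up to 2 mismatches. The submitters' processing notes name CASAVA 1.8.2, TopHat2 2.0 and GRCm38. The counting tool and annotation release are not given in the sources used here. The deposited values are raw counts per gene, made by the authors with no normalization.

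Tests were run with edgeR 4.0.16 under R 4.3.3 (filterByExpr with a minimum count of 10, TMM factors, quasi-likelihood test, Benjamini-Hochberg adjustment over all genes tested, threshold 0.05). CR and AS tumors were compared with tumor type as a covariate, metastatic and primary tumors with tumor type as the only term, and an interaction was fitted over the 4 groups. Exact two-sided permutation tests over 70 arrangements used log2(CPM + 0.5). Coordinates and exon lengths are from GENCODE M21 (GRCm38), in which 36343 of 38115 identifiers were found. The metastases are labelled as matched, without the primary tumor each one matches, and nothing says that tumors of a group came from separate animals. The p-values of the main fits and permutation tests therefore set a difference against the variation between these tumors, taken as independent. They say nothing of the variation between animals. Replicates differed by more than counting noise and no files held the same values. The primary CR tumors differed most, with a chi-square per gene of 1598 against 109 to 175 in the other groups. Ribosomal RNA genes and Lars2 together held 2.67% of counts in primary CR1, 32.4% in primary CR2, 31.4% in metastatic CR1 and 19.8% in metastatic CR2. In AS tumors they held 11.6% to 14.7%. The fits were tried on simulated counts with known changes first. DESeq2 1.42.0, other scalings, other filters, each tumor left out and, added after seeing the data, counts summed over matched tumors were alternatives. Figures were drawn with matplotlib 3.10.9.

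The members and the gene lists were chosen with earlier results of these data known. The genes named are the 10 members, other listed pathway genes past the threshold (the 10 with the smallest p at most, or the 3 with the smallest p where none passed). A gene that this rule also names is left out here. Marker genes are named with their list only. Outside this rule, the family genes Hsd3b2, Hsd3b7, Hsd17b10, Hsd17b11, Hsd17b12 and Akr1c13 were singled out after their values were seen. Gm17108 and Nsun2 are named because they overlap Srd5a1. Lars2 is named only as part of a share of counts.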

Additional observations from a re-analysis of the deposited data

Results flagged for a closer look

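The level of Srd5a3 in metastatic AS1, 8.88 CPM, stood apart from the other 3 AS tumors, which lay between 11.0 and 11.4 CPM. The level of Srd5a3 in primary CR2, 9.81 CPM, stood apart from the other 3 primary tumors, which lay between 11.2 and 11.5 CPM. Both were found by Dixon's ratio of the gap to the range within 4 tumors, which was examined in 20 groups, and chance flags about 1 in 20.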

How the results depend on the processing

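Between phenotypes 2026 genes and 1 of the steroid synthesis genes were called. The numbers were 3563 and 2 with DESeq2, 3098 and 3 with every gene that had a count, 237 and 0 without metastatic AS2 and metastatic CR2 (chosen after seeing the data), 247, 164, 335 and 389 genes and 0 steroid synthesis genes with matched tumors summed under the 4 possible pairings (also chosen after seeing the data), 4 and 0 in primary tumors only, and 974 and 0 in metastatic tumors only. With phenotype as the only term, 2 steroid synthesis genes were called. Leaving out each tumor gave 433 to 3994 genes and 0 to 1 steroid synthesis genes. For the interaction, 2 genes were called with DESeq2, 217 with every gene that had a count, and 0 to 82 without each tumor. No gene was called between tumor types in any of 22 alternatives (0 genes). The labels call the metastases matched without naming the primary tumor, so a replicate block was tried for all 4 pairings, with 0 genes called and 879 to 1359 at an unadjusted p under 0.05.

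The signs of the following values turned, most of them for changes near 0. Between phenotypes, the log2 fold change of Star was -0.09 with every gene that had a count, -0.029, -0.13, -0.058 and -0.14 with matched tumors summed, -0.20 in primary tumors only and -0.19 to 0.18 without each tumor, and that of Hsd17b4 was 0.025 in primary tumors only. The level difference of Star was -0.013 when scaled to reads outside the 10 most abundant genes and -0.081 when scaled to the raw total. Between tumor types, upper quartile factors gave 0.021 for Star and 0.013 for Hsd17b4. AS tumors only gave -0.20 for Cyp17a1 and 0.17 for Hsd17b4, and CR tumors only gave 0.21 for Star and -0.024 for Srd5a1. Without metastatic AS2 and metastatic CR2, Hsd17b4 was at 0.046. Leaving out each tumor gave -0.19 to 0.11 for Star, -0.28 to 1.28 for Cyp17a1, -0.14 to 0.063 for Hsd17b4 and -0.071 to 0.73 for Srd5a1, and -0.19 to 4.15 for the interaction of Akr1c18, whose value was 3.03 (SE 2.69) and which turned without metastatic CR2, the CR tumor with its only read. The cause was not tested. The call of Srd5a1 was kept in 8 of 22 alternatives. The total of the shallowest library limits what can be said of Cyp17a1, Akr1c18 and genes below them.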
